A study of Bos grunniens x Bos taurus and Bos grunniens with 6 samples.

Results

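The sperm isozymes of glycolysis and their somatic paralogs were examined in testis RNA-seq of cattle-yak and yak. They were taken as every gene of the deposited table whose symbol, ignoring case, was PGK2, PGK1, GAPDHS, GAPDH, LDHC, LDHA, LDHB, ENO4, ENO1 or HK1, with each gene ID kept separately. Of these 10 symbols 7 were found, on 10 of the 18918 genes of the table. GAPDH stood on 2 genes and LDHB on 3, whereas no gene was matched to LDHC, LDHA or HK1 by symbol and these were not analysed here. A gene under the symbol HKDC1 is described in the table as hexokinase 1, so its identity is uncertain, and it is reported with the other enzymes.

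Testis tissue of 3 cattle-yak, named C1, C2 and C3, and of 3 yak, named Y1, Y2 and Y3, all males aged 4 years, was sequenced with 1 library per animal. The cattle-yak were first-generation hybrids with a Jersey cattle sire and a Gannan yak dam, and the yak were of the Gannan breed. Cattle-yak came from Xiahe County and yak from Linxia County, and the study's methods describe castration for the cattle-yak and euthanasia for the yak, while the sample labels give castration throughout. Hybrid origin, place and way of collection therefore cannot be told apart. The comparison asks how the balance of sperm and somatic enzymes differs in the testis of the hybrid, whose males are sterile. Because the replicates are separate animals, the p-values refer to the spread between animals.

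Glycolysis converts glucose to pyruvate in the cytosol, and lactate dehydrogenase interconverts pyruvate and lactate. Most tissues use widely expressed enzymes for these steps, whereas male germ cells switch on isozymes of their own. PGK2 is an autosomal retrogene copy of the X-linked PGK1 and is transcribed from meiosis onwards, GAPDHS is bound to the fibrous sheath of the sperm tail, and ENO4 is an enolase of the sperm flagellum.

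The values rest on 11834987, 11175100 and 11600013 fragments assigned to genes for the cattle-yak C1, C2 and C3, and on 13136129, 13104964 and 12991641 for the yak Y1, Y2 and Y3. Levels are given as FPKM, the fragments of a gene relative to its length and to the depth of the library, so that genes of different length can be compared. A 1 kb gene with 1 fragment had 0.0761 to 0.0895 FPKM. Genes with a mean of at least 0.5 FPKM were compared on log2 (FPKM + 1) with limma, a scale that understates the change of low genes, where a call required a log2 (foldchange) beyond 1 and an adjusted p under 0.05 by Benjamini-Hochberg.

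Of the 10 genes, 9 passed the filter on low values. The sperm isozymes PGK2, GAPDHS and ENO4 were called lower in cattle-yak, 3 genes in a table where 20.8% of the 15042 genes tested were called lower. PGK1, GAPDH and 2 LDHB genes were called higher, 4 genes beside 33.4% of all genes tested, although with libraries centred on Sertoli cell markers these 4 lay between 0.09 and 0.36 and were not called. The remaining 2 genes tested, ENO1 and a second GAPDH gene, were not called. The groups did not overlap in 7 of the 9, as in 84.1% of all genes tested. The median log2 (foldchange) of all genes tested was 0.51 with the values as deposited, 0.01 with median-of-ratios scaling and −1.65 with Sertoli centring. With Sertoli centring 71.7% of all genes were called lower and 0.253% higher, and with median-of-ratios scaling 27.8% and 17.7%. The position of each of the 9 genes relative to the median on the deposited scale is therefore given beside its change.

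**Figure D1:**
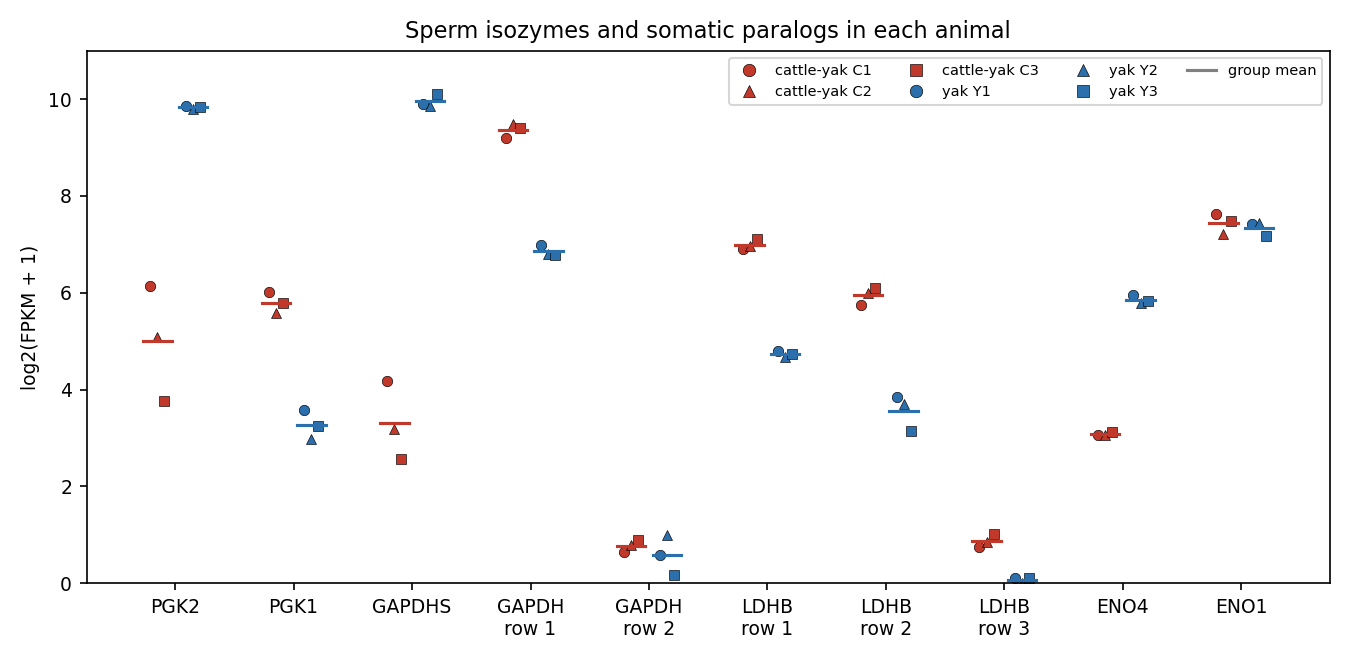
Levels of the 10 genes on the log2 (FPKM + 1) scale in each of the 3 cattle-yak (red) and 3 yak (blue), with a line at the mean of the log2 values of each group. PGK2, GAPDHS and ENO4 lie lower in every cattle-yak than in every yak, while PGK1, the first GAPDH gene and the LDHB genes lie higher on the deposited scale, a difference that was not called for the 4 of them tested when libraries were centred on Sertoli markers.

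Phosphoglycerate kinase makes ATP from 1,3-bisphosphoglycerate. The sperm isozyme PGK2 (ENSBGRG00000023754) was at 69.9, 32.8 and 12.6 FPKM in the cattle-yak C1, C2 and C3, and at 921.5, 889.8 and 914.8 FPKM in the yak Y1, Y2 and Y3. All 3 cattle-yak were far below all 3 yak, and they differed among themselves, C1 being 5.53 times C3, whereas the yak animals spanned 1.04-fold. Cattle-yak averaged 38.4 ± 29.1 FPKM (SD, n = 3), and yak 908.7 ± 16.7 FPKM (SD, n = 3), which is 23.6-fold higher. Its log2 (foldchange) was −4.83 (SE 0.49), or −5.34 relative to the median of all genes (limma, Benjamini-Hochberg adjusted p = 3.1e-05). The value depended on individual cattle-yak animals: without C1 the yak mean was 40.0-fold higher, and without C3 the log2 (foldchange) was −4.22. In a bulk tissue, fewer cells of a type and less RNA per cell cannot be told apart, for this gene and for those that follow.

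Its somatic paralog PGK1 (ENSBGRG00000014778) had the opposite pattern, with 63.9, 46.6 and 54.5 FPKM in the cattle-yak C1, C2 and C3 but 10.997, 6.91 and 8.53 FPKM in the yak Y1, Y2 and Y3. Every cattle-yak exceeded every yak. Cattle-yak averaged 55.0 ± 8.67 FPKM (SD, n = 3) against 8.81 ± 2.06 FPKM (SD, n = 3) for yak, a 6.24-fold higher level. The log2 (foldchange) was 2.52 (SE 0.18; limma, Benjamini-Hochberg adjusted p = 4.2e-06) and 2.01 relative to the median of all genes, but 0.36 and not called with Sertoli centring.

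Glyceraldehyde-3-phosphate dehydrogenase catalyses the preceding step, in which NADH is formed. The spermatogenic isozyme GAPDHS (ENSBGRG00000025264) was at 17.1, 8.05 and 4.91 FPKM in the cattle-yak C1, C2 and C3, and at 952.1, 927.3 and 1101 FPKM in the yak Y1, Y2 and Y3. It was the most abundant of the 10 genes in yak and lower than all but 3 of them in cattle-yak, where C3 was represented by 69 fragments and Y3 by 17329. The cattle-yak mean of 10.01 ± 6.32 FPKM (SD, n = 3) stood against a yak mean of 993.3 ± 93.7 FPKM (SD, n = 3), a 99.2-fold difference that became 153.3-fold without C1. The log2 (foldchange) was −6.65 (SE 0.35; limma, Benjamini-Hochberg adjusted p = 9.0e-07), or −7.16 relative to the median of all genes.

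Somatic GAPDH (ENSBGRG00000001042) was at 584.3, 714.2 and 675.8 FPKM in the cattle-yak C1, C2 and C3, and at 126.4, 109.9 and 109.1 FPKM in the yak Y1, Y2 and Y3. Each cattle-yak was above each yak, with a mean of 658.1 ± 66.8 FPKM (SD, n = 3) against 115.1 ± 9.76 (SD, n = 3). Its log2 (foldchange) was 2.50 (SE 0.11; limma, Benjamini-Hochberg adjusted p = 4.4e-07), 1.99 relative to the median of all genes, 1.89 with median-of-ratios scaling and 0.34 with Sertoli centring, where it missed the fold threshold. The second gene under this symbol (ENSBGRG00000012374), whose reads may be shared with the first and whose level is therefore uncertain, had 1 to 8 fragments per library. It lay between 0.13 and 1.007 FPKM with overlapping groups. Its log2 (foldchange) was 0.19, or −0.32 relative to the median of all genes. The sign of the log2 (foldchange) changed with median-of-ratios scaling (−0.041), with Sertoli centring (−1.97) and without Y3 (−0.0205).

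Enolase converts 2-phosphoglycerate to phosphoenolpyruvate. The sperm isozyme ENO4 (ENSBGRG00000017722) was at 7.41, 7.39 and 7.66 FPKM in the cattle-yak C1, C2 and C3, and at 61.3, 54.0 and 55.7 FPKM in the yak Y1, Y2 and Y3. The cattle-yak animals lay within 1.04-fold of each other, unlike for PGK2 and GAPDHS. ENO4 averaged 7.48 ± 0.1496 FPKM (SD, n = 3) for cattle-yak against 57.0 ± 3.81 FPKM (SD, n = 3) for yak, a level 7.62-fold higher. The log2 (foldchange) was −2.77 (SE 0.10; limma, Benjamini-Hochberg adjusted p = 2.1e-07), or −3.28 relative to the median of all genes.

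ENO1 (ENSBGRG00000012014), the enolase of most somatic tissues, was at 196.2, 148.1 and 178.3 FPKM in the cattle-yak C1, C2 and C3, and at 170.4, 172.9 and 142.7 FPKM in the yak Y1, Y2 and Y3. The groups overlapped, with means of 174.2 ± 24.4 (SD, n = 3) and 162.0 ± 16.8 FPKM (SD, n = 3). The log2 (foldchange) of 0.10 had a 95% interval from −0.20 to 0.40 (limma, Benjamini-Hochberg adjusted p = 0.494). Relative to the median of all genes it was −0.41. The sign of the log2 (foldchange) turned with median-of-ratios scaling (−0.52) and with Sertoli centring (−2.06, called lower). Unlike PGK1 and GAPDH, ENO1 was thus not called higher on the deposited scale.

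LDHB encodes the H subunit of lactate dehydrogenase, typical of heart muscle. The LDHB gene with the highest level (ENSBGRG00000003482) was at 118.6, 123.6 and 136.6 FPKM in the cattle-yak C1, C2 and C3, and at 26.8, 24.6 and 25.6 FPKM in the yak Y1, Y2 and Y3. A second gene (ENSBGRG00000003594) was at 52.7, 62.8 and 67.2 FPKM in C1, C2 and C3 and at 13.4, 11.9 and 7.81 in Y1, Y2 and Y3. In both genes every cattle-yak was above every yak, with log2 (foldchange) values of 2.25 and 2.39 on the deposited scale and of 0.09 and 0.22, not called, with Sertoli centring. Relative to the median of all genes on the deposited scale, both genes lay higher, at 1.74 and 1.87. Their Benjamini-Hochberg adjusted p from limma was 3.8e-07 and 8.1e-06 on the deposited scale. The third gene (ENSBGRG00000001679) was not tested: it had 8, 9 and 12 fragments in the 3 cattle-yak and 1, 0 and 1 in the yak. The count of 0 in Y2 allows a level of up to 0.228 FPKM, a limit set from 3 fragments that covers counting error only. The second and the third gene have the same length of 1005 bases, and their levels are uncertain because similar copies may share reads.

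The levels of the genes, which are per length, were ordered differently in the groups. In yak the order by mean FPKM was GAPDHS, PGK2, ENO1, GAPDH, ENO4, the first LDHB gene, the second LDHB gene and PGK1, and only the last pair overlapped between animals. In cattle-yak it was GAPDH, ENO1, the first LDHB gene, the second LDHB gene, PGK1, PGK2, GAPDHS and ENO4. There, the ranges of neighbours overlapped from the second LDHB gene to ENO4, although PGK2 exceeded GAPDHS in each of the 3 animals, and PGK1 did not overlap with GAPDHS, nor PGK2 with ENO4. The 2 least abundant genes, the second GAPDH and the third LDHB gene, stayed at or below 1.03 FPKM in every library.

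The balance within a step was measured as the log2 ratio of the sperm isozyme to its somatic paralog in the same library, with a pseudocount of 1 FPKM added to both, so that the scaling of libraries cancels apart from the effect of the pseudocount. Shares and folds within a pair are given without it. Of 5 planned pairs 3 could be computed. For PGK2 to PGK1 the log2 ratio was 0.13, −0.50 and −2.02 in the cattle-yak C1, C2 and C3, and 6.26, 6.82 and 6.59 in the yak Y1, Y2 and Y3. PGK2 thus held 52.2%, 41.3% and 18.8% of the summed FPKM of the pair in C1, C2 and C3 and 98.8%, 99.2% and 99.1% in Y1, Y2 and Y3. The difference between the group means was −7.35 (exact permutation test, two-sided, p = 0.1, the smallest p that 3 animals against 3 allow), −7.54 without the pseudocount and −6.74 without C3.

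For GAPDHS to GAPDH the log2 ratio was −5.02, −6.30 and −6.84 in the cattle-yak C1, C2 and C3, and 2.90, 3.07 and 3.32 in the yak Y1, Y2 and Y3. The sperm isozyme held 2.84%, 1.11% and 0.721% of the pair in C1, C2 and C3, and 88.3%, 89.4% and 91.0% in Y1, Y2 and Y3. In yak the sperm isozyme outweighed the somatic paralog 7.53- to 10.1-fold, and in cattle-yak the somatic paralog outweighed the sperm isozyme 34.2- to 137.7-fold, as ratios of FPKM without the pseudocount. The difference between the groups in the log2 ratio, −9.15 or −9.33 without the pseudocount, was the widest of the 3 pairs (exact permutation test, two-sided, p = 0.1, the smallest possible).

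ENO1 exceeded ENO4 in all 6 animals. ENO4 held 3.64%, 4.75% and 4.12% of the pair in C1, C2 and C3 and 26.5%, 23.8% and 28.1% in Y1, Y2 and Y3. The log2 ratio averaged −4.36 ± 0.20 (SD, n = 3) for cattle-yak against −1.49 ± 0.16 (SD, n = 3) for yak, a difference of −2.87, or −3.03 without the pseudocount (exact permutation test, two-sided, p = 0.1, the smallest possible).

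**Figure D2:**
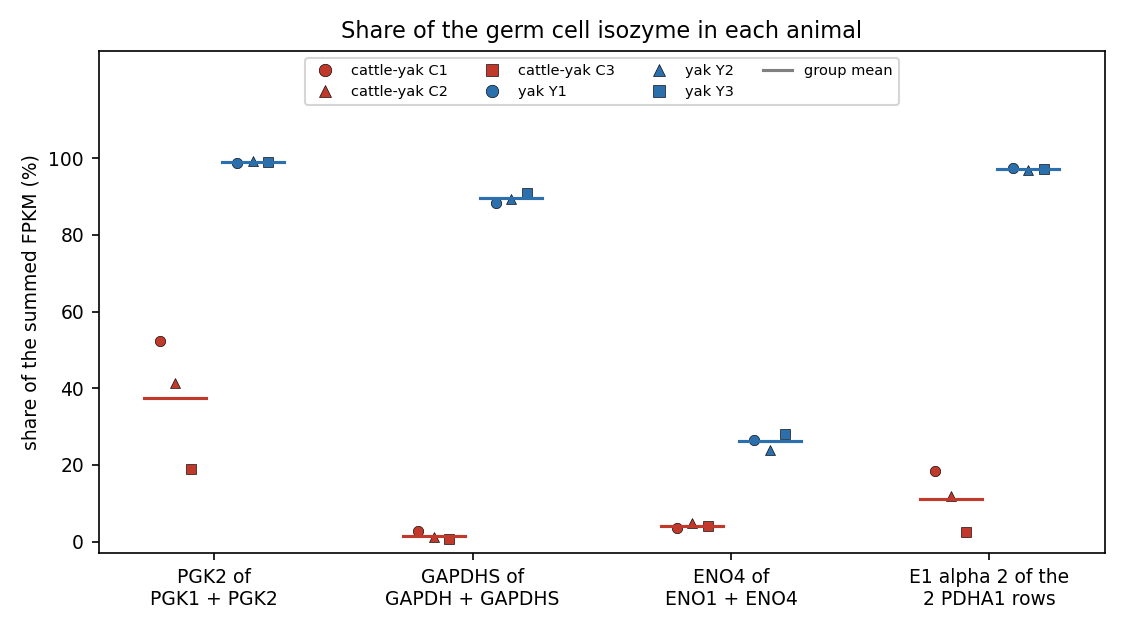
Share of the sperm isozyme, or of the PDHA1 gene described as alpha 2, in the summed FPKM of its pair, in percent. Each cattle-yak is red and each yak blue, with a line at the group mean. PGK2 and GAPDHS held most of their pair in yak, with group means of 99.0% and 89.6%, against 37.4% and 1.56% in cattle-yak, and ENO4 remained the minor enolase in both groups. The last pair, the genes under the symbol PDHA1, was chosen after its values were seen. The identities of these genes are uncertain, and they are described with pyruvate dehydrogenase.

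The summed levels of these 3 pairs were closer between the groups than the sperm isozymes alone. This follows by arithmetic, because each somatic paralog had a higher mean in cattle-yak on the deposited scale. PGK1 and PGK2 together reached 93.5 ± 35.5 FPKM (SD, n = 3) for cattle-yak against 917.5 ± 18.6 FPKM (SD, n = 3) for yak, 9.82-fold higher. For GAPDHS and both GAPDH genes the sums were 668.8 ± 61.5 and 1109 ± 89.6 FPKM (SD, n = 3 each), 1.66-fold higher in yak. These 2 sums did not overlap between the groups (exact permutation test, two-sided, p = 0.1, the smallest possible). ENO1 and ENO4 summed to 181.7 ± 24.4 and 219.0 ± 18.0 FPKM (SD, n = 3 each), with overlapping groups (exact permutation test, two-sided, p = 0.2). With ENO2 and ENO3 added, a sum that was not planned, the levels were 195.8 ± 25.1 and 289.0 ± 23.0 FPKM (SD, n = 3 each). That wider enolase sum was 1.48-fold higher in yak, without overlap between the groups. The overlap and the p of these sums refer to the deposited scale only. The LDHB genes summed to 188.0 ± 16.5 FPKM for cattle-yak against 36.8 ± 3.38 FPKM for yak (SD, n = 3 each), 5.11-fold higher in the hybrids on the deposited scale, and remained above yak with median-of-ratios scaling. The sums were not computed with Sertoli centring, with which the 2 LDHB genes that hold most of this sum lay at 0.09 and 0.22 and were not called. Median-of-ratios scaling moved the log2 differences down, from −3.36 to −3.98 for PGK and from −0.73 to −1.35 for GAPDH. For ENO1 with ENO4 the move was from −0.28 to −0.89, and for LDHB from 2.35 to 1.74. The size of these differences therefore depends on the scaling.

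Markers of spermatids moved in the direction of the sperm isozymes. All 4 measured genes of the round spermatid list and all 6 of the elongating spermatid list were called lower in cattle-yak, beside 20.8% of all genes. The medians of the 2 lists were −5.06 and −7.84, beside 0.51 for all genes. Of the 4 round spermatid markers, 2 were below 1 FPKM in every cattle-yak, where log2 (FPKM + 1) understates the change. With voom on recovered fragments the medians were −6.95 and −8.28, beside 0.63 for all genes. The summed round spermatid markers were at 14.9, 7.03 and 3.10 FPKM in C1, C2 and C3 and at 610.3, 562.8 and 669.5 in Y1, Y2 and Y3. The most abundant of them was SPACA1, an acrosomal membrane protein gene, in cattle-yak and, in yak, a gene under the symbol Tssk2 that the table describes as testis specific serine kinase 1B, so its identity is uncertain. The summed elongating spermatid markers, led by the transition protein gene TNP1, were at 80.1, 29.9 and 14.1 FPKM in C1, C2 and C3 and at 10521, 9109 and 11114 in Y1, Y2 and Y3. No marker of either list was at 0 in all cattle-yak libraries.

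Within cattle-yak, PGK2, GAPDHS and both spermatid sums were highest in C1 and lowest in C3. The highest animal was 5.53 times the lowest for PGK2, 3.48 times for GAPDHS, 4.79 times for the round and 5.69 times for the elongating spermatid markers, but 1.04 times for ENO4. Relative to the yak mean, the log2 level of GAPDHS was −5.86, −6.95 and −7.66 in C1, C2 and C3, and that of ENO4 was −2.95, −2.95 and −2.90. The sums of the earlier stages had other patterns. The 8 spermatocyte markers, led by SYCP3 in cattle-yak and Piwil1 in yak, had a median of −0.14 on the deposited scale, −0.70 with median-of-ratios scaling and −2.30 with Sertoli centring, and summed to 375.7, 204.0 and 351.8 FPKM in C1, C2 and C3 against 414.8 to 433.5 in yak, with 1 called higher (SYCP3, 1.10, but 0.49 and not called with median-of-ratios scaling), 1 lower (Piwil1) and 6 not called. On the deposited scale 33.4% of all genes were called higher and 20.8% lower. Piwil1 also fell from C1 to C3, at 25.5, 14.6 and 6.99 FPKM in C1, C2 and C3. In Y1, Y2 and Y3 it was at 163.1, 147.3 and 134.8 FPKM. SYCP3 differed, with 99.4, 59.4 and 114.1 FPKM in C1, C2 and C3. With median-of-ratios scaling 3 of the 8 spermatocyte markers were called lower, beside 27.8% of all genes. With Sertoli centring all 8 were called lower, beside 71.7% of all genes. Of the 8 spermatogonial markers, led by UCHL1, 7 were called higher on the deposited scale, beside 33.4% of all genes, with a median of 1.78. With median-of-ratios scaling 6 were called higher, beside 17.7% of all genes, with a median of 1.25. With Sertoli centring, however, 6 of the 8 spermatogonial markers lay below 0 and the median was −0.38. Their sum was 340.3, 399.4 and 407.7 FPKM in C1, C2 and C3 against 84.4, 85.0 and 99.3 in Y1, Y2 and Y3. The part of these cell types in the levels of the isozymes was not tested.

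**Figure D3:**
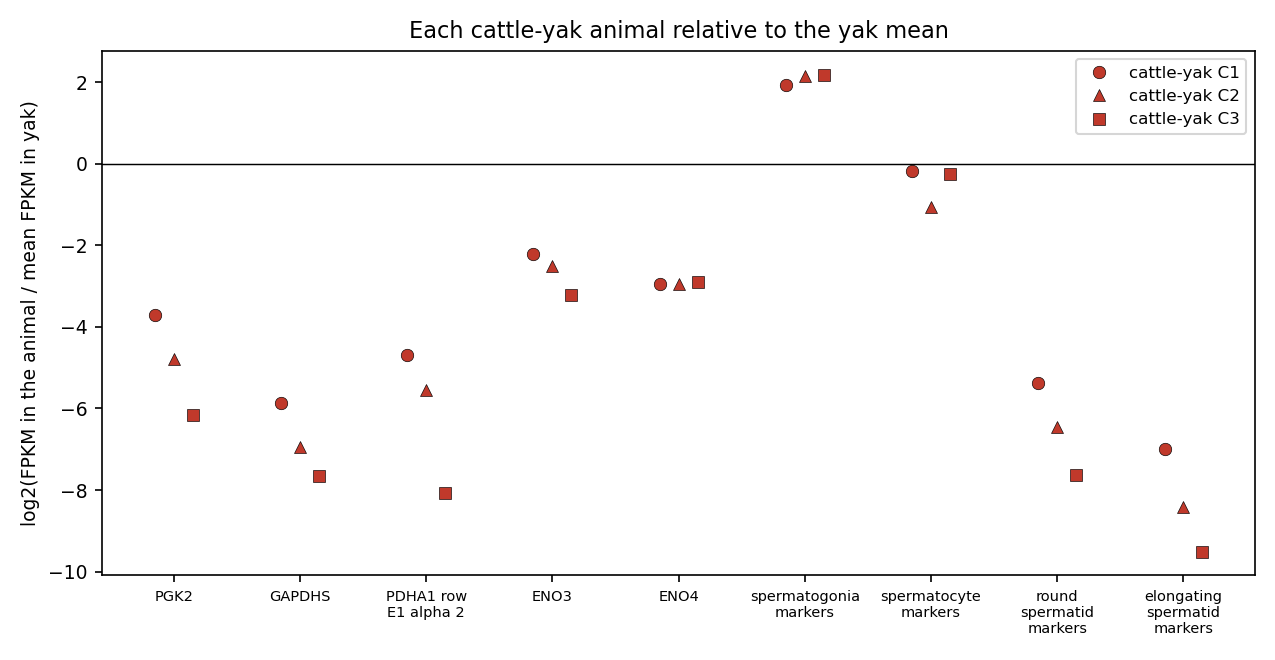
Level in each cattle-yak animal relative to the mean of the 3 yak, as log2 of the FPKM ratio on the deposited scale. Shown are the sperm isozymes PGK2, GAPDHS and ENO4, the muscle form ENO3 and the PDHA1 gene that was lower in cattle-yak, whose identity is uncertain. The summed markers of 4 germ cell stages are also shown. C1, C2 and C3 spread widely for PGK2, GAPDHS and the spermatid markers and lie close together for ENO4, between −2.95 and −2.90.

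Markers of Sertoli, Leydig and myoid cells moved in the direction of PGK1, the first GAPDH gene and the LDHB genes on the deposited scale. All 8 Sertoli markers tested were called higher on the deposited scale, beside 33.4% of all genes, with a median of 2.35 beside 0.51 for all genes. The Sertoli markers summed to 1578 to 1727 FPKM in cattle-yak against 383.1 to 398.9 in yak, CLU being the most abundant. This list is the one used for Sertoli centring. All 6 Leydig markers were called higher on the deposited scale, beside 33.4% of all genes. Their median of 1.98 became −0.18 with Sertoli centring. INSL3 was not called with median-of-ratios (0.94) or quantile scaling (0.85), which left 5 of the 6, beside 17.7% and 30.2% of all genes. The Leydig markers summed to 10434 to 12423 FPKM in cattle-yak and 3340 to 4864 in yak, led by INSL3. Of the 6 myoid markers 5 were called higher on the deposited scale, beside 33.4% of all genes. Their median of 1.91 became −0.25 with Sertoli centring, and Acta2 was the most abundant. Their sum was 578.7 to 777.4 FPKM in cattle-yak and 125.0 to 154.5 in yak.

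Of the 7 endothelial markers, led by CLDN5 in cattle-yak and VWF in yak, 4 were called higher and 1 lower on the deposited scale. Of all genes, 33.4% were called higher and 20.8% lower on that scale. With median-of-ratios scaling those 4 were not called and 1 marker was called lower, beside 17.7% higher and 27.8% lower of all genes. With Sertoli centring 3 of the 7 were called lower, beside 71.7% of all genes. The endothelial markers summed to 45.1 to 64.4 FPKM in cattle-yak and 32.9 to 39.5 in yak. Their median of 1.20 became 0.64 with median-of-ratios scaling and −0.96 with Sertoli centring. Of the 6 macrophage markers 3 were called higher and 2 lower on the deposited scale, beside 33.4% and 20.8% of all genes. With median-of-ratios scaling 1 was called higher and 2 lower, beside 17.7% and 27.8% of all genes. C1QA was the most abundant in cattle-yak, and AIF1, called lower, in yak. The median of the macrophage markers was 1.03, 0.52 with median-of-ratios scaling or −1.13 with Sertoli centring. With that centring 3 were called lower, beside 71.7% of all genes. The macrophage markers summed to 71.9 to 94.7 FPKM in cattle-yak and 97.6 to 116.4 in yak. The 3 erythroid genes measured, HBA, ALAS2 and SLC4A1, were below the filter, with ALAS2 at 0 in all cattle-yak libraries and sums of at most 0.715 FPKM. Here too, the part of these cells in the somatic paralogs was not tested.

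The other enzymes of the pathway were taken from a list of 23, of which 18 were tested. On the deposited scale 5 were called higher, 6 lower and 7 not called, with a median of 0.40 beside 0.51 for all genes, of which 33.4% were called higher and 20.8% lower. Sertoli centring left 13 of the 18 called lower and a median of −1.76, beside 71.7% and −1.65 for all genes. With median-of-ratios scaling 5 were called higher and 7 lower, with a median of −0.19, beside 17.7% and 27.8% of all genes and a median of 0.01. Of the 53 tested genes that the table annotates to glycolysis and gluconeogenesis, a list chosen after the values were seen, 18 were called higher and 13 lower, beside 33.4% and 20.8% of all genes, with a median of 0.23. With median-of-ratios scaling 16 of the 53 were called higher and 18 lower, beside 17.7% and 27.8% of all genes, and the median was −0.13. With Sertoli centring 36 of the 53 were called lower, beside 71.7% of all genes, and the median was −1.93.

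At the entry of the pathway, hexokinases phosphorylate glucose. HK2, the insulin-responsive form, was at 26.1 to 33.0 FPKM in cattle-yak and 4.85 to 5.89 in yak, with a log2 (foldchange) of 2.25 that was 0.09 with Sertoli centring. The gene under the symbol HKDC1 that the table describes as hexokinase 1 (ENSBGRG00000011917) was at 17.3 to 25.4 FPKM in cattle-yak and 69.6 to 80.1 in yak and was called lower (−1.83). HK3, at most at 2.51 FPKM, was called lower as well (−1.04). GPI, which isomerises glucose-6-phosphate, was also lower in every cattle-yak, at 96.6 to 124.0 FPKM against 267.3 to 330.8 (−1.38).

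Phosphofructokinase, the main control point of glycolysis, has muscle, liver and platelet forms. PFKP, the platelet form, was at 11.6, 9.45 and 7.52 FPKM in C1, C2 and C3 and at 99.3, 114.4 and 86.6 in Y1, Y2 and Y3, a log2 (foldchange) of −3.27 (SE 0.17; limma, Benjamini-Hochberg adjusted p = 7.8e-07). PFKL, the liver form, was called higher (2.08) on the deposited scale, but lay at −0.08 with Sertoli centring. Of the summed FPKM of PFKM, PFKL and PFKP, a family examined after the values were seen, PFKP held 67.6% ± 2.66 for yak against 13.2% ± 3.65 for cattle-yak (SD, n = 3 each). PFKL held 6.07% ± 1.76 of it for yak against 55.4% ± 9.12 for cattle-yak (SD, n = 3 each).

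In the middle of the pathway, ALDOA and TPI1 were not called, with log2 (foldchange) values of 0.02 and 0.26 that became −2.14 and −1.90 with Sertoli centring. ALDOC was called higher (1.66) on the deposited scale and was at −0.50 with Sertoli centring, and the main gene under PGAM1, a phosphoglycerate mutase, was at 2.04 and −0.12, respectively. BPGM, which makes 2,3-bisphosphoglycerate, was called lower (−1.47). Copies of PGAM1 and BPGM under the same symbols may share reads with these genes, so both values are uncertain.

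Among the enolases, the muscle form ENO3 was lower in cattle-yak together with ENO4, at 14.7, 12.01 and 7.42 FPKM in C1, C2 and C3 against 74.5, 67.0 and 64.3 in Y1, Y2 and Y3 (log2 (foldchange) −2.53, SE 0.21; limma, Benjamini-Hochberg adjusted p = 1.1e-05). Of the summed FPKM of the 4 enolases ENO1 held 88.9% ± 1.73 for cattle-yak against 56.0% ± 2.41 for yak (SD, n = 3 each). ENO3 held 5.84% ± 1.81 and 23.8% ± 0.873, and ENO4 3.86% ± 0.492 and 19.8% ± 1.40 (SD, n = 3 each). Pyruvate kinase PKM, at 0.92 on the deposited scale, was below the fold threshold, was called higher with quantile scaling (1.13) and called lower with Sertoli centring (−1.24). LDHD, the D-lactate dehydrogenase, was called higher (2.25) on the deposited scale and was at 0.09 with Sertoli centring.

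**Figure D4:**
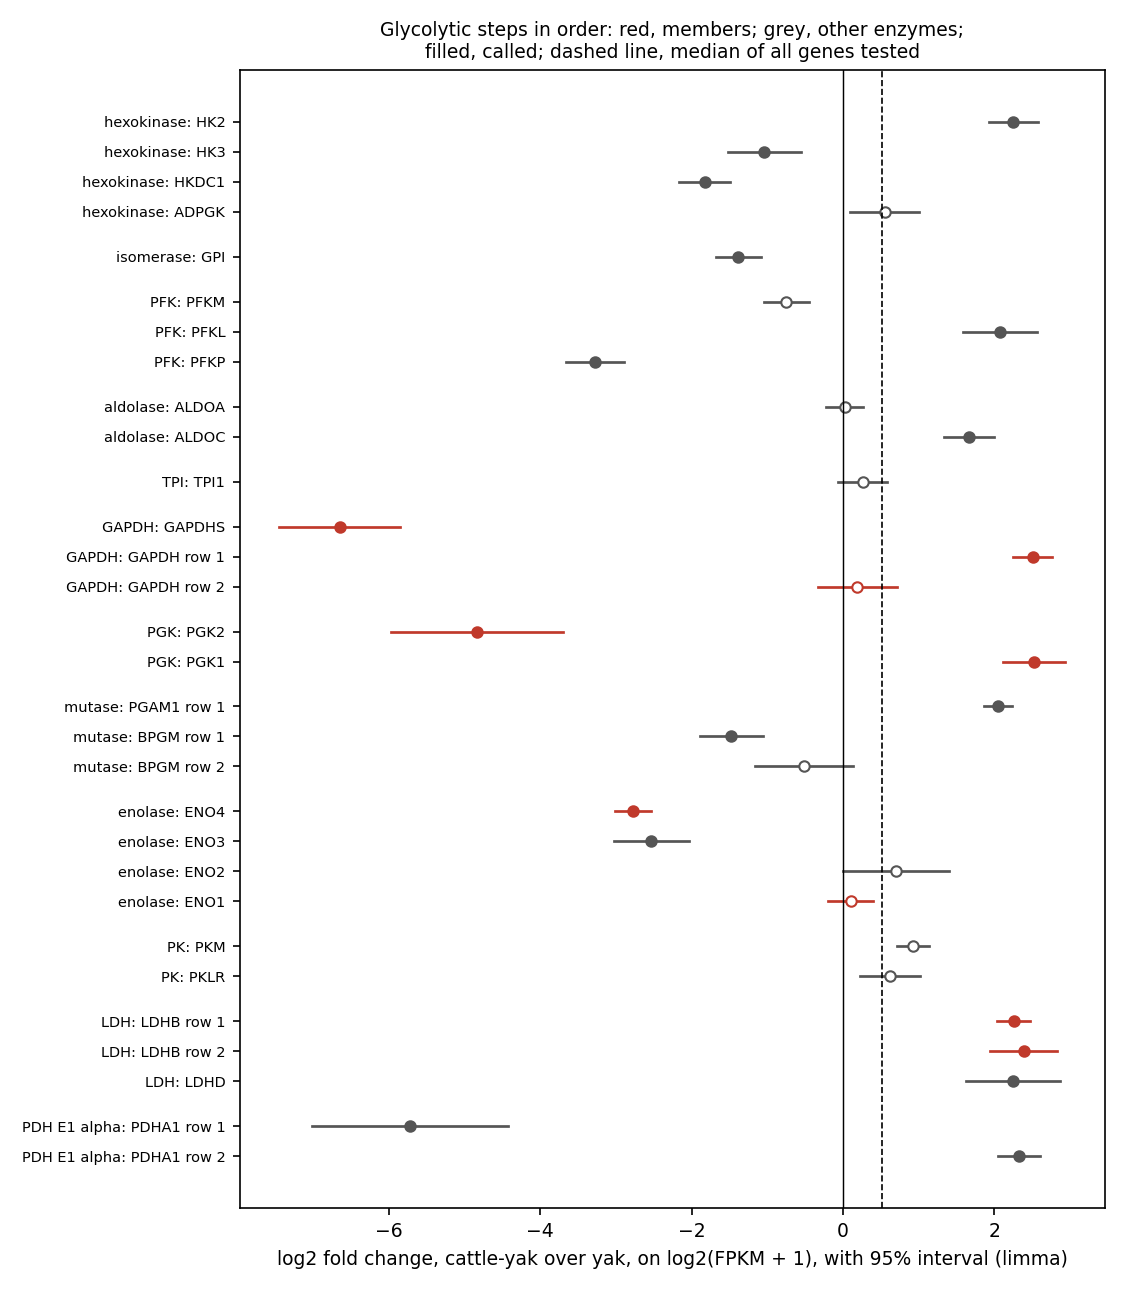
Change in cattle-yak relative to yak of each tested glycolytic gene and of both PDHA1 genes, ordered by step. Points give the log2 (foldchange) on log2 (FPKM + 1), with the 95% interval from limma. Red marks the sperm isozymes and paralogs, grey the other enzymes, and the dashed line the median of all genes, 0.51. GAPDHS, the PDHA1 gene described as alpha 2 (−5.72), PGK2, PFKP, ENO4 and ENO3 lie far below the line. The genes above 2 on this scale, such as PGK1 and GAPDH, lie between −0.12 and 0.36 with Sertoli centring.

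Of the 5 listed regulators of glycolytic flux 4 were tested, and PFKFB4 (2.22) and TIGAR (1.03) were called higher on the deposited scale, 2 of 4 beside 33.4% of all genes. With Sertoli centring PFKFB4 was at 0.05 and not called and TIGAR was called lower (−1.14), and TIGAR was not called with median-of-ratios scaling (0.53). PFKFB4 sets the level of fructose-2,6-bisphosphate, an activator of phosphofructokinase, and was at 27.6, 42.6 and 42.2 FPKM in C1, C2 and C3 against 8.13, 6.27 and 7.08 in Y1, Y2 and Y3. The median of the 4 genes was 0.90 on the deposited scale, beside 0.51 for all genes, 0.38 with median-of-ratios scaling, where 1 was called higher beside 17.7% of all genes, and −1.27 with Sertoli centring, where 3 were called lower beside 71.7% of all genes.

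Pyruvate dehydrogenase links glycolysis to the citric acid cycle. Of its 9 subunit and kinase genes tested, 4 were called higher, 2 lower and 3 not called on the deposited scale, beside 33.4% higher and 20.8% lower of all genes, with a median of 0.17 beside 0.51. With median-of-ratios scaling 3 were called higher and 3 lower, beside 17.7% and 27.8% of all genes, and the median was −0.43 beside 0.01. With Sertoli centring 5 were called lower, beside 71.7% of all genes, and the median was −1.99 beside −1.65. The symbol PDHA1 stood on 2 genes, described in the table as alpha subunits 1 and 2 of the E1 component, of which the more abundant stands for the symbol in these counts, and the pair was compared after their values had been seen. Their identities are uncertain, and the names alpha 1 and alpha 2 used here follow these descriptions. The gene described as alpha 2 (ENSBGRG00000000876) was at 13.0, 7.21 and 1.26 FPKM in C1, C2 and C3 and at 361.3, 298.2 and 348.1 in Y1, Y2 and Y3. The gene described as alpha 1 (ENSBGRG00000014128) was at 57.4, 53.0 and 46.8 FPKM in C1, C2 and C3 against 9.20, 9.19 and 10.6 in Y1, Y2 and Y3. Alpha 2 held 18.4%, 11.98% and 2.61% of the pair in C1, C2 and C3 and 97.0% to 97.5% in yak, where the alpha 2 mean was 47.0-fold above that of cattle-yak and 79.4-fold without C1. The difference of the log2 ratio, with the pseudocount, was −8.04, which is a description because the pair was chosen for its pattern. The other gene of the list called lower was PDK1, a kinase that inhibits the complex (−2.37), while DLD (2.41), PDK4 (2.78), PDK3 (1.93) and DLAT (1.31) were called higher on the deposited scale and lay at 0.25, 0.61, −0.23 and −0.86 with Sertoli centring. DLAT was not called with median-of-ratios scaling (0.73).

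GAPDH served as the reference gene for RT-qPCR in the study. Of 10 other genes commonly used for that purpose, 7 were called higher in cattle-yak and 3 not called on the deposited scale, with a median of 1.52 beside 0.51 for all genes, of which 33.4% were called higher. With median-of-ratios scaling 5 were called higher, beside 17.7% of all genes, and the median was 0.90. With Sertoli centring 3 were called lower, beside 71.7% of all genes, and the median was −0.64. ACTB (2.13) and HPRT1 (2.58) lay near GAPDH (2.50) on the deposited scale, and at −0.03 and 0.42 with Sertoli centring. PPIA, YWHAZ and TBP, which were not called, lay at 0.34, 0.66 and 0.67 on the deposited scale, but between −1.83 and −1.49 with Sertoli centring. HPRT1, PPIA, B2M, GUSB and TBP have further genes under the same symbol, so the most abundant was used and its level is uncertain.

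**Figure D5:**
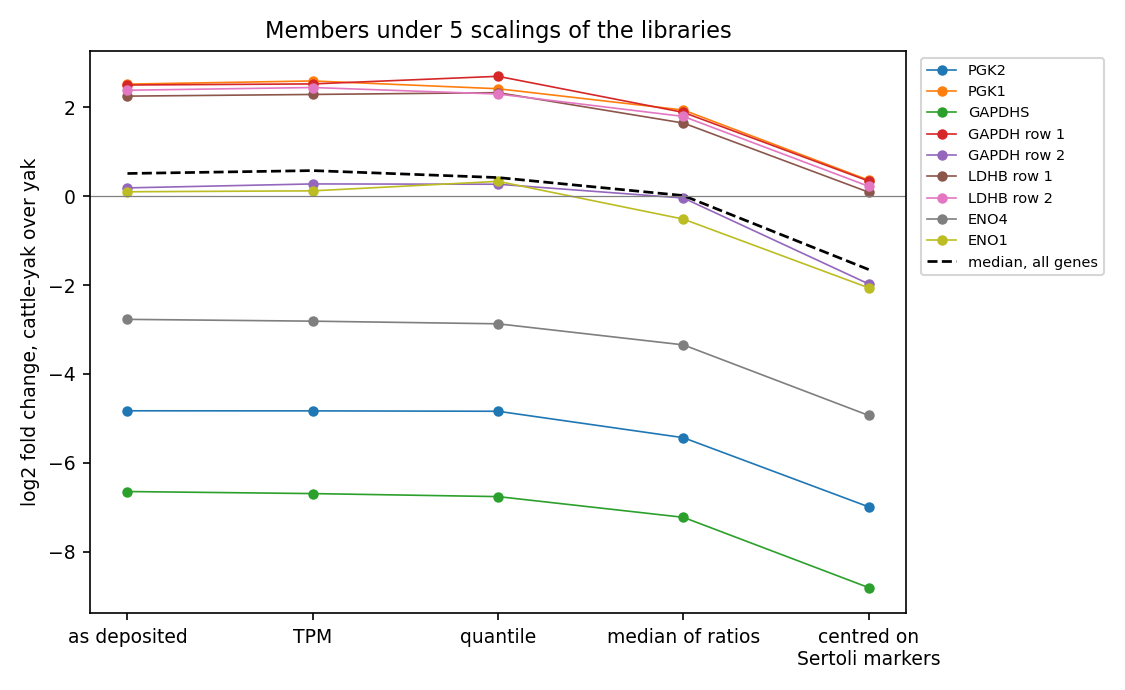
Change of the 9 tested genes as log2 (foldchange) of cattle-yak over yak under 5 ways of scaling the libraries, with the median of all genes as a dashed line. PGK2, GAPDHS and ENO4 lie below 0 under each, whereas PGK1, GAPDH and both LDHB genes drop from above 2 to between 0.09 and 0.36 with Sertoli centring, and ENO1 and the second GAPDH gene change sign.

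The genes whose pattern was most like that of PGK2 were named by the smallest Euclidean distance of centred log2 (FPKM + 1) over the 6 animals. They were SEPTIN12 (distance 0.15), TMEM225 (0.25) and ACR (0.32), with log2 (foldchange) values of −4.79, −4.95 and −5.04. SEPTIN12 forms part of the sperm annulus and ACR encodes the acrosomal protease acrosin. SEPTIN12 was at 11.2, 4.67 and 1.59 FPKM in C1, C2 and C3 and at 147.6 to 163.2 in yak. Nearest to GAPDHS were Fscn3 (0.17), an actin-bundling protein gene, Klhl10 (0.23), a testis ubiquitin ligase adaptor, and CCDC54 (0.24), with −6.73, −6.70 and −6.69. Klhl10 was at 3.28, 1.62 and 0.613 FPKM in C1, C2 and C3 and at 255.9 to 294.1 in yak. In all 6 genes C1 was the highest and C3 the lowest of the cattle-yak, a pattern that the distance itself selects.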

How the data were processed

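Testis RNA of 3 cattle-yak and 3 yak was sequenced as stranded, paired-end mRNA libraries. According to the study's methods, the authors used Trimmomatic for trimming, mapped both groups to the yak genome LU_Bosgru_v3.0 with HISAT2, calculated FPKM with Cufflinks and tested counts with DESeq. The authors deposited FPKM per gene and animal, without scaling between libraries, and columns were assigned by sample title. Each value corresponded to a whole number of fragments over the gene's length and the library's depth: 99.99% of 107838 values of 17973 genes lay within 0.03 of a whole fragment, which gave the fragments, lengths and depths (11175100 to 13136129 fragments).

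The 15042 genes with a mean of at least 0.5 FPKM were tested two-sided by limma 3.58.1 in R 4.3.3 with a variance trend, on log2 (FPKM + 1) and with p adjusted over all of them, in place of a count test because FPKM are not counts. Ratios and sums were compared with exact permutation tests. Python 3.11.15, numpy 2.4.6, pandas 2.3.3 and matplotlib 3.10.9 were used, and limma and the recovery were tested on simulated data.

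Named genes were every gene of the 10 symbols, the 3 nearest genes each of PGK2 and GAPDHS, and genes of fixed lists (other glycolytic enzymes, flux regulators, pyruvate dehydrogenase, RT-qPCR reference genes and 10 cell types). Some genes not called are also named, a choice made after their values were seen. Members and lists were chosen with earlier results of these data known. A gene of the reference list is not reported here and was left out of its counts and medians. For symbols on several genes the most abundant was used in lists. Alternatives were pseudocounts of 0.1 and 0.01, no filter or a minimum of 5 FPKM, TPM, quantile, median-of-ratios and Sertoli-centred scaling (log2 values shifted by the mean of 9 Sertoli markers), limma with a robust prior or without the trend, no fold threshold, voom on recovered fragments, and leaving out each animal. Histology, RT-qPCR and splicing were not used here, and promoter and protein sequences were not analysed.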

Additional observations from a re-analysis of the deposited data

How the results depend on the processing

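The directions of PGK2, GAPDHS and ENO4 and their calls held under all 17 alternatives of each gene, and the directions of the 3 log2 ratios held under the 9 run. Leaving out each animal gave −5.41 to −4.22 for PGK2, −7.08 to −6.28 for GAPDHS, −2.81 to −2.72 for ENO4, and, for the ratios, −7.82 to −6.74 for PGK2 to PGK1, −9.67 to −8.76 for GAPDHS to GAPDH and −2.98 to −2.78 for ENO4 to ENO1. The calls of the somatic paralogs changed with Sertoli centring, which shifts all genes of a library alike on the log2 scale. PGK1, the first GAPDH gene and both tested LDHB genes were called higher in the other 16 of the 17 alternatives. With Sertoli centring 38 genes of the table were called higher and 10790 lower, in place of 5023 and 3136, and 0 of the sperm and somatic genes were called higher and 5 lower by limma. At an unadjusted p under 0.05 there was 1 of them above 0 with that centring, GAPDH, whose adjusted p from limma with Benjamini-Hochberg was 0.0329 and which missed the call by the fold threshold, and voom on the deposited scale called 4 higher. PGK1 was then at 0.36, GAPDH at 0.34 and the LDHB genes at 0.09 and 0.22, while ENO1 (−2.06) and the second GAPDH gene (−1.97) turned negative. Median-of-ratios scaling gave 2660 genes higher and 4176 lower, put ENO1 at −0.52 and the second GAPDH gene at −0.0408, and moved the summed log2 levels to −3.98 for PGK, −1.35 for GAPDH, −0.89 for ENO and 1.74 for LDHB, from −3.36, −0.73, −0.28 and 2.35. The second GAPDH gene ranged from −0.0205 to 0.3959 when each animal was left out. Without a fold threshold 7916 genes were called higher. Sertoli centring and median-of-ratios scaling each apply a common value to a whole library. Why these values differ between the groups was not tested. The ratios with LDHC could not be computed.

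No paired analysis was possible because the labels give no pairing, and the numbers in C1 to C3 and Y1 to Y3 only count the animals within a group. Depth limits the genes at 1 FPKM or below, where 1 fragment on 1005 bases is worth about as much as the whole yak level of the third LDHB gene. With 3 animals per group no exact permutation p can fall below 0.1. Which part of any change lies with the hybrid origin, the place or the way of collection cannot be told apart.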
